A study of Mus musculus with 6 samples.

Results

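The surfactant and alveolar type 2 genes are 10 genes that mark the surfactant-producing cell of the lung alveolus: the surfactant protein genes Sftpa1, Sftpb, Sftpc and Sftpd, the lamellar body and lipid genes Abca3, Lamp3, Napsa, Slc34a2 and Lpcat1, and the transcription factor gene Etv5. Their probe sets were chosen as all those whose only gene symbol in the platform annotation is a member, which gave 20 of the 34945 probe sets with 1 gene symbol and 9 of the 10 genes. The only probe set of Lamp3 is shared with Ppid, and Lamp3 therefore has no value here. RNA was measured in lung cells of mice labelled Bmi1 mutant (genotype given as Bmi1 null) and of Bmi1 wild-type mice, 3 arrays of each, on Affymetrix Mouse Genome 430 2.0 arrays. All animals were 4 month old females of a mixed Bl6/129 background, and their lung cells were taken without culture. The cells were sorted as live and negative for CD31 and CD45, surface proteins of endothelial and blood-derived cells. Each array is called a biological replicate, with no statement of whether it holds the cells of 1 mouse or of several, and p-values therefore cover only the spread among these arrays.

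Alveolar type 2 cells make surfactant, a film of phospholipid and protein that lowers surface tension in the alveolus. The lipid and the small hydrophobic proteins SP-B and SP-C are packed in lamellar bodies, storage organelles that are secreted to the airspace, while the collectins SP-A and SP-D also bind microbes. Their genes are driven in the lung epithelium by the transcription factors NKX2-1 and FOXA2, among others. Bmi1 codes for a Polycomb protein that helps keep developmental genes shut, and the published study of these arrays concerns lung stem cells and imprinted genes.

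The stretch of 250 bases before the gene start is shown for Sftpb and Sftpa1, because these are the surfactant protein genes with an entry in the RefSeq promoter table (GRCm38.p6), which held 7 of the 10 members (not Sftpc, Sftpd or Napsa). Capitals mark matches on either strand to CTCAAG or CAAGTG, core sequences known for NKX2-1, and to TGTTTNC, a core of FOXA sites.
Sftpb, chr6:72304360-72304609, plus strand: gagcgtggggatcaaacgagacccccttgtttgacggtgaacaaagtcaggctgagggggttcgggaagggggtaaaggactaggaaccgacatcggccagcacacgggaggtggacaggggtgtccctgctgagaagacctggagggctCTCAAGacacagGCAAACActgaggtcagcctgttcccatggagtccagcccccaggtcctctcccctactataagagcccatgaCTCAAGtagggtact
Sftpa1, chr14:41131538-41131787, plus strand: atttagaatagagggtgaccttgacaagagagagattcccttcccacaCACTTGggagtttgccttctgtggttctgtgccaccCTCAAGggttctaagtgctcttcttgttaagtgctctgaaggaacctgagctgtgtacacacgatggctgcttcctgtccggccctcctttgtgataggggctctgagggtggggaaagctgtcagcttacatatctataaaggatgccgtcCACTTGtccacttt
The Sftpb stretch holds CTCAAG 2 times, 100 and 15 bases before the start, and TGTTTNC 1 time (read as GCAAACA, 88 bases before the start). The Sftpa1 stretch holds CTCAAG 1 time and CAAGTG 2 times (read as CACTTG). Of the 32851 stretches of this length in the table, 13.3% hold CTCAAG, 11.6% hold CAAGTG and 17.8% hold TGTTTNC. Overlapping matches were counted separately. A match describes the letters and is not a measured binding site.

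The values are probe-set signals on a linear scale that the authors had scaled to a common trimmed mean, so every level is relative to the rest of its array. Median signals of the arrays lay between 97.4 and 114. Bmi1 itself read 1276, 1498 and 1565 in the 3 mutant arrays, against 996, 979.8 and 1164 in the 3 wild-type arrays on one probe set, and 637, 535 and 824 in the 3 mutant arrays, against 545, 535 and 684 in the 3 wild-type arrays on the other. The signal of Bmi1 was thus not lower in the arrays labelled mutant (log2 difference 0.46, adjusted p = 0.282 by limma for the gene); the deleted part of the gene is not named in the labels, and directions given here rest on the labels. Differences are mutant minus wild type in log2(signal + 16), tested over 18193 genes with limma and Benjamini-Hochberg adjustment, and called genes are those with an adjusted p under 0.05. Each gene is represented by its brightest probe set, and the p-values of single probe sets come from a second fit over all 45037 probe sets.

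Surfactant and type 2 genes gave bright signals in the sorted cells of both genotypes, and 0 of the 9 measured genes passed the test. Among all genes 0.923% passed, a share too low for 0 of 9 to set the members apart. At an unadjusted p under 0.05, 0 of the 9 passed as well, against 14.5% of all genes. The 9 log2 differences lay between 0.048 and 0.37, all above 0, with a median of 0.19 against 0.0059 over all genes tested. The 95% intervals of the 9 genes, taken as folds, reached from 0.761 (Abca3) to 1.70 (Napsa). In 5 of the 9 genes every mutant array was above every wild-type array, which was so for 10.4% of all genes. In 0 of the 9 was every mutant array below, which was so for 1823 of all 18193 genes. The genes vary together over the arrays, so the 5 are not independent of each other. Abca3 turned below 0 without mutant replicate 3 (-0.0066) or wild-type replicate 1 (-0.040), and Slc34a2 without wild-type replicate 1 (-0.0031). Of all genes 168 were called, 75 higher and 93 lower (120 and 88 with median centring), and this count ranged from 2 without wild-type replicate 2 to 76 without mutant replicate 3. In such bulk samples, a different number of type 2 cells and a different amount of RNA per cell cannot be told apart.

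**Figure D1:**
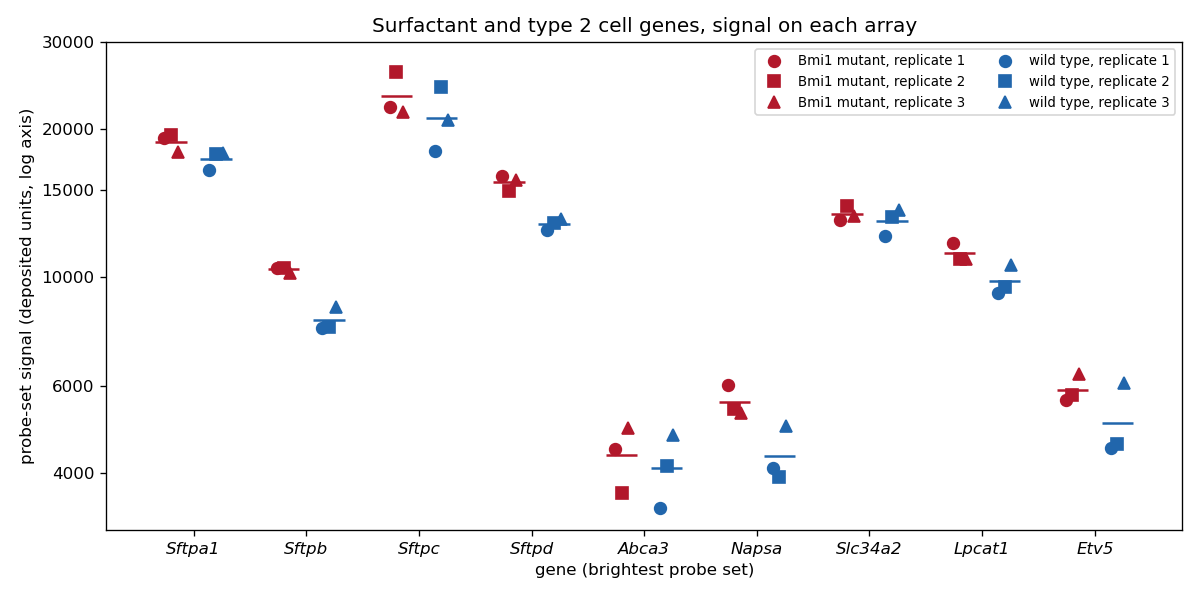
Signal of the brightest probe set of each of the 9 measured genes (deposited units, log axis) on each array, with mutant arrays in red on the left and wild-type arrays in blue on the right of each gene. Symbols give the replicate number and bars the group mean. Sftpa1, Sftpb, Sftpd, Napsa and Lpcat1 do not overlap between the genotypes, while Sftpc, Abca3, Slc34a2 and Etv5 do.

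Among the surfactant proteins, Sftpb and Sftpd had the greater differences, and Sftpc, the gene most used to mark type 2 cells, one of the smaller. Sftpb, which encodes the protein needed to form lamellar bodies and to spread the lipid film, read 10449, 10415 and 10209.6 in the 3 mutant arrays, against 7879.5, 7897 and 8705 in the 3 wild-type arrays. The groups did not overlap, and the SD was 130 among the mutant arrays and 472 among the wild-type arrays. The log2 difference of Sftpb was 0.34 ± 0.15 (SE; 95% interval -0.0052 to 0.69; limma adjusted p = 0.349). The collectin gene Sftpd read 16024, 14989 and 15753 in the 3 mutant arrays, against 12457, 12854 and 13136 in the 3 wild-type arrays, again without overlap, a log2 difference of 0.28 ± 0.15 (SE; 95% interval -0.063 to 0.63; limma adjusted p = 0.439). The other collectin gene, Sftpa1, read 19158, 19434 and 17951 in the 3 mutant arrays, against 16489.5, 17779.9 and 17879 in the 3 wild-type arrays on its brighter probe set. These groups were separate by a narrow margin, with mutant replicate 3 just above wild-type replicate 3, and the difference was 0.12 ± 0.15 (SE; 95% interval -0.23 to 0.47; limma adjusted p = 0.786). On the dimmer probe set Sftpa1 read 9179 ± 302 in mutant and 7993 ± 1438 in wild-type cells (SD, n = 3 each), and wild-type replicate 3 was above all mutant arrays there.

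Sftpc read 22205, 26144 and 21674 in the 3 mutant arrays, against 18052, 24356 and 20860.3 in the 3 wild-type arrays on its brighter probe set. Replicate 2 was the highest array in both genotypes and the groups overlapped. The log2 difference of Sftpc was 0.15 ± 0.18 (SE; 95% interval -0.28 to 0.59; limma adjusted p = 0.771). Leaving out wild-type replicate 1 moved it to 0.045, and leaving out wild-type replicate 2 to 0.26. The other probe set of Sftpc read 18874, 21524 and 18542 in the 3 mutant arrays, against 16617, 18339.5 and 18471 in the 3 wild-type arrays, where the groups did not overlap but mutant replicate 3 and wild-type replicate 3 were nearly equal, and its difference was 0.14 (limma adjusted p = 0.787).

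Of the genes for surfactant processing and lipid handling, Napsa had the greatest difference and Slc34a2 the smallest. Napsa encodes napsin A, an aspartic protease that cleaves the SP-B precursor, and read 6018, 5389.6 and 5287 in the 3 mutant arrays, against 4085, 3927 and 4980.3 in the 3 wild-type arrays. Every mutant array was above every wild-type array, and the log2 difference was 0.37 ± 0.17 (SE; 95% interval -0.036 to 0.77; limma adjusted p = 0.386). A second probe set of Napsa was dim, with 107 ± 52.3 in mutant and 107 ± 12.7 in wild-type cells (SD, n = 3 each), and its log2 difference of -0.11 (limma adjusted p = 0.938) had the opposite sign.

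Lpcat1, the acyltransferase that makes the saturated phosphatidylcholine of surfactant, had 5 probe sets. The brightest read 11752, 10885 and 10901 in the 3 mutant arrays, against 9292, 9531 and 10589.6 in the 3 wild-type arrays, without overlap, and the log2 difference of the gene was 0.19 ± 0.15 (SE; 95% interval -0.17 to 0.55; limma adjusted p = 0.636). The next 3 probe sets in brightness had differences of 0.33 (limma adjusted p = 0.550), 0.48 (limma adjusted p = 0.431) and 0.38 (limma adjusted p = 0.625). The middle of these read 1729, 1660.0 and 1616 in the 3 mutant arrays, against 1044, 1017 and 1604 in the 3 wild-type arrays, with wild-type replicates 1 and 2 low and wild-type replicate 3 close to the mutant arrays. The fifth probe set of Lpcat1 read between 0.234 and 8.21 over all arrays, a level too dim to compare.

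Abca3, the transporter that loads lipid into lamellar bodies, read 4469.9, 3640.2 and 4924 in the 3 mutant arrays, against 3386, 4125 and 4765 in the 3 wild-type arrays. The groups overlapped, with wild-type replicate 1 and mutant replicate 2 low, and the difference was 0.089 ± 0.20 (SE; 95% interval -0.39 to 0.57; limma adjusted p = 0.891). A dimmer probe set of Abca3 differed by -0.11 (limma adjusted p = 0.920), and the third, with a mean signal of 37.1, by 0.21 (limma adjusted p = 0.831). Slc34a2, the sodium-phosphate cotransporter of the type 2 cell surface, read 13076, 13949 and 13309.6 in the 3 mutant arrays, against 12116, 13253 and 13688 in the 3 wild-type arrays. The groups overlapped, with wild-type replicate 1 the lowest array and the other wild-type arrays among the mutant ones, and the difference was 0.048 ± 0.15 (SE; 95% interval -0.31 to 0.40; limma adjusted p = 0.925).

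Etv5, an ETS family transcription factor that maintains type 2 cells in mice, read 5608, 5754 and 6346 in the 3 mutant arrays, against 4488, 4570.2 and 6095 in the 3 wild-type arrays. Wild-type replicates 1 and 2 lay below all mutant arrays, and wild-type replicate 3 lay among them. The log2 difference of Etv5 was 0.24 ± 0.18 (SE; 95% interval -0.20 to 0.67; limma adjusted p = 0.627), and its other probe sets differed by 0.31 (limma adjusted p = 0.593) and 0.34 (limma adjusted p = 0.597). Leaving out wild-type replicate 1 or 3 moved Etv5 to 0.16 or 0.38. Over all 20 member probe sets, 17 were above 0 and 0 were called. Among all probe sets 0.404% were called, a share too low for 0 of 20 to set the members apart. At an unadjusted p under 0.05, 0 of the 20 passed, against 13.0% of all probe sets. In 7 of the 20 every mutant array was above every wild-type array, against 8.11% of all probe sets.

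**Figure D2:**
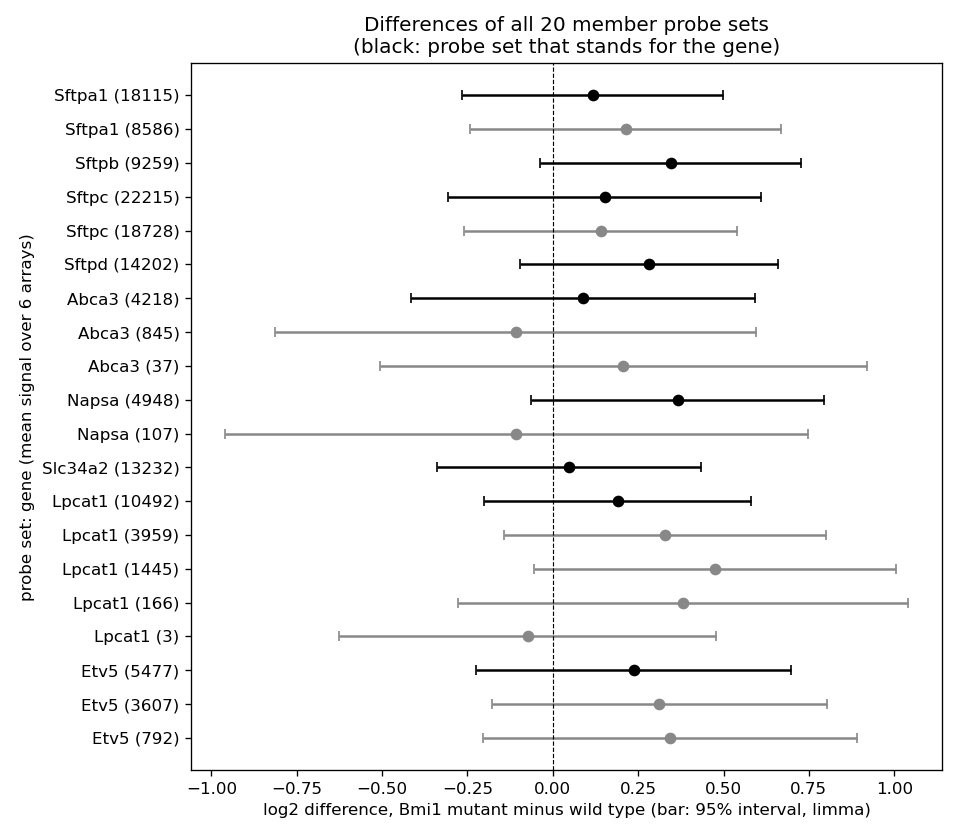
Log2 difference (mutant minus wild type) of each of the 20 member probe sets with its 95% interval from limma, fitted over all probe sets. Labels give the gene and the mean signal over the 6 arrays, and black marks the probe set that stands for the gene. All 20 intervals include 0, and 17 of the 20 differences are above it.

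Several member probe sets were among the brightest of the array, where signals can approach the limit of the scanner. The brighter Sftpc probe set had the highest mean signal of all 45037 probe sets, 22215, and was the brightest of its array in mutant replicates 2 and 3 and wild-type replicate 2. On every array it reached at least 87.3% of the brightest signal, the other Sftpc probe set 75.3% to 85.5%, the brighter Sftpa1 probe set 73.0% to 84.8% and Sftpd 52.8% to 72.7%. Control probe sets, which are left out of these shares, read up to 25579.6 to 33216 per array, above every Sftpc value of the same array. On each array 1 probe set held the highest value. The deposited values are scaled summaries of probe sets, so neither observation can show whether single probes were saturated. Flags for saturated pixels were not used here, and saturation of the Sftpc, Sftpa1 and Sftpd probe sets was not tested.

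Bright probe sets differed less between the genotypes than dimmer ones. Of the 313 probe sets with a mean signal of 10000 or more, 0.319% differed by over 0.5 in log2, against 14.1% of those between 1000 and 5000. The median spread within a genotype was 0.111 against 0.193 in log2 (SD). Among these 313 were 6 member probe sets, whose differences took places 4 (Sftpd), 20 (Lpcat1), 34 and 42 (Sftpc), 56 (Sftpa1) and 123 (Slc34a2) from the highest. In 4 of the 6 the mutant arrays were all above the wild-type arrays, against 7.67% of the 313. Within genes that had several probe sets of a mean signal of at least 100, the dimmer probe sets had the larger difference in 6 of 9 comparisons with the brightest: 3 of 3 for Lpcat1, 2 of 2 for Etv5 and 1 of 1 for Sftpa1, but 0 of 1 for each of Sftpc, Abca3 and Napsa.

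**Figure D3:**
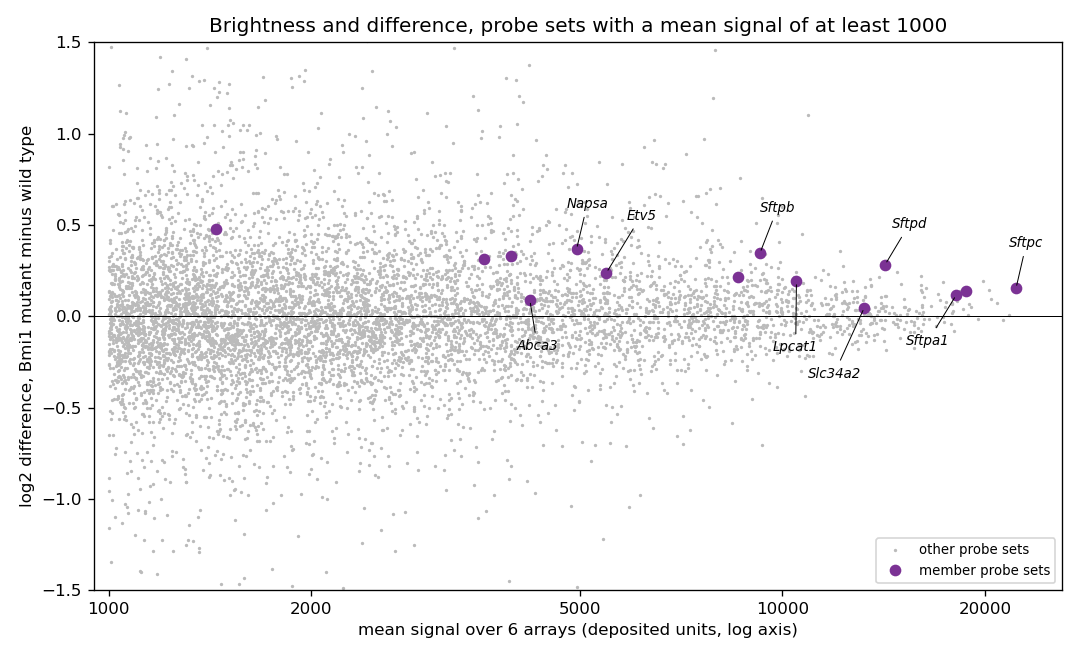
Log2 difference (mutant minus wild type) against mean signal over the 6 arrays (deposited units, log axis) for all probe sets with a mean signal of at least 1000, with 14 member probe sets in purple and labels on those that stand for their gene; 76 other probe sets lie beyond the vertical range. The cloud narrows to the right, and the labelled members lie between 0.048 and 0.37.

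The members' signals ran in parallel over the 6 arrays to different degrees. Pearson correlations of log2 signal between members ranged from 0.080 (Abca3 with Sftpc) to 0.984 (Lpcat1 with Napsa), with a median of 0.681 over the 36 pairs; the points share the arrays, their scaling and the genotypes. Wild-type replicate 1 was the lowest array in 8 of the 9 genes and wild-type replicate 2 in the other, Napsa. A mutant array was the highest in all 9. The mean log2 signal of the 9 genes was 13.37, 13.34 and 13.36 in mutant replicates 1 to 3, against 13.04, 13.15 and 13.27 in wild-type replicates 1 to 3, so the spread lay mainly among the wild-type arrays. Without wild-type replicate 1 the median difference of the members was 0.15.

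Epithelial genes at large were set beside the members. The 20 genes of a list of general epithelial genes (keratins, claudins, Cdh1 and others) had a median difference of 0.18, with 15 above and 5 below 0, 0 called, and a summed signal of 45847 to 49045 in mutant and 44846 to 51917 in wild-type arrays. Its members went both ways: Epcam, an adhesion protein gene of epithelia, differed by -0.28, adjusted p = 0.677 by limma, with -0.52 to -0.11 when 1 array was left out. E-cadherin (Cdh1) differed by 0.087, adjusted p = 0.878, with 0.025 to 0.19 when 1 array was left out. Measured against the mean of that list on the same array, the mean log2 of the 9 surfactant and type 2 genes was higher by 3.01, 2.95 and 2.92 in the mutant arrays and by 2.77, 2.94 and 2.90 in the wild-type arrays, and the groups overlapped. On this scale Sftpb stood 2.95 ± 0.0565 above the list in mutant and 2.71 ± 0.0324 in wild-type cells (SD, n = 3 each), without overlap. Sftpd and Napsa were also without overlap, but by narrow margins. The lowest mutant and highest wild-type values were 3.49 and 3.44 for Sftpd, and 1.94 and 1.92 for Napsa. The other members overlapped, and the share of all genes without overlap on this scale was not computed. With the list mean as a covariate in limma, Abca3 (-0.11) and Etv5 (-0.062) turned below 0.

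Markers of blood-derived cells, which the sort was to remove, were among the called genes. The marker lists were chosen with earlier results of these data known. Their calls beside the share of all genes are therefore a description and not a test. Lymphoid markers had 6 of 10 measured genes called lower (0.511% of all genes), with a summed signal of 4629 to 7055 in mutant and 16173 to 24893 in wild-type arrays. The B cell genes Ms4a1 (-3.40, adjusted p = 0.00314) and Cd79b (-1.96, adjusted p = 0.0111) and the natural killer cell receptor gene Ncr1 (-3.23, adjusted p = 0.0116) had the smallest p-values by limma. Macrophage markers had 3 of 10 called lower by limma, namely Fabp1 (-5.00, adjusted p = 0.00617), Krt79 (-2.93, adjusted p = 0.0280) and Siglecf (-2.19, adjusted p = 0.0354). The median of the macrophage list was only -0.35, with 8 below and 2 above 0, so these 3 genes do not stand for the list. Its summed signals were 36107 to 49669.8 in mutant and 47881 to 61650.1 in wild-type arrays. Neutrophil markers had 4 of 10 called higher, against 0.412% of all genes, with summed signals of 27443 to 60195 in mutant and 11274 to 15575 in wild-type arrays. Those with the smallest p-values were the cystatin gene Stfa3 (6.42, adjusted p = 0.0100), the collagenase gene Mmp8 (1.70, adjusted p = 0.0243) and the lipocalin gene Lcn2 (2.66, adjusted p = 0.0284), which epithelial cells can express too. These counts rest on all 6 arrays: with 1 array left out, 1 to 5 lymphoid and 0 to 3 macrophage markers were called lower and 0 to 3 neutrophil markers higher. Lymphoid calls fell to 1 without mutant replicate 1, wild-type replicate 2 or wild-type replicate 3, macrophage calls to 0 without wild-type replicate 2, and neutrophil calls to 0 without mutant replicate 1, wild-type replicate 2 or wild-type replicate 3. The medians kept their sign in each of these fits. Ptprc, which encodes the CD45 that the sort was to remove, still read 5767 ± 852 in mutant and 7716 ± 966 in wild-type cells (SD, n = 3 each), with a limma adjusted p = 0.369.

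Fibroblast markers had 1 of 14 called higher, and all 14 differences were above 0 with a median of 0.51. The summed signals were 80414, 77879 and 76526 in the 3 mutant arrays, against 73718, 60460.0 and 36419 in the 3 wild-type arrays. Wild-type replicate 3 was far below the other arrays, and without it 11 of the 14 were above 0 with a median of 0.17. The called gene was Col1a1 (1.37, adjusted p = 0.0482 by limma), which lost its call whichever array was left out, and the collagen genes Col1a2 (0.68, adjusted p = 0.230) and Col3a1 (0.51, adjusted p = 0.252) followed by p-value. Endothelial markers had 0 of 12 called, with 5 above and 7 below 0 and a median of -0.036. Their summed signals were 27084 to 31483 in mutant and 23275 to 37497 in wild-type arrays. Pecam1, which encodes CD31, was among those above 0 and differed by 0.40, adjusted p = 0.427 (limma). Erythroid genes had 0 of 6 called, and mutant replicate 3 stood apart with a summed signal of 4227, against 464 to 723 on the other arrays. No marker in these lists had a signal of 0, and since each array is scaled to a common mean, the part of these cells in the levels of the surfactant genes was not tested.

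Other epithelial cell types of the lung had 0 called markers, but single markers differed by more than any member. Of 15 alveolar type 1 cell markers, 12 were above 0, with differences between -0.25 and 1.51 and a median of 0.23. Pdpn encodes podoplanin of the type 1 cell surface but is also expressed elsewhere, as in lymphatic vessels, and the cell source of its signal was not tested. Pdpn read 4165, 3554 and 2981 in the 3 mutant arrays, against 1679, 977 and 1134 in the 3 wild-type arrays. The groups were far apart, and the log2 difference of 1.51 ± 0.25 (SE; 95% interval 0.92 to 2.10; limma adjusted p = 0.0530) fell just short of a call. Spock2, a proteoglycan gene, differed by 1.42, adjusted p = 0.0608 (limma), also with every mutant array above every wild-type array, and the membrane protein gene Emp2 by 0.74, adjusted p = 0.290, with overlap. Ager, the receptor gene that marks these flat gas-exchange cells, differed by 0.26, adjusted p = 0.564. The median of the list lay between 0.11 (wild-type replicate 2 left out) and 0.38 (wild-type replicate 1 left out).

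The 12 club cell markers went both ways, from -1.25 to 1.38, with 8 above 0 and a median of 0.078 (-0.021 without wild-type replicate 3). The cytochrome P450 gene Cyp2f2 differed by -0.62, adjusted p = 0.146 (limma), with every mutant array below. The secretoglobin gene Scgb3a1 differed by 0.97, adjusted p = 0.154 and the secreted mucin gene Muc5b by 1.38, adjusted p = 0.238, both with every mutant array above. Muc5b was 0.91 without wild-type replicate 3. The main secretoglobin gene of club cells, Scgb1a1, differed by 0.038, adjusted p = 0.950. All 12 ciliated cell markers were above 0, between 0.012 and 0.68 with a median of 0.10, and 8 of the 12 without mutant replicate 3. Foxj1, the transcription factor gene of ciliated cells, differed by 0.68, adjusted p = 0.204 (limma) and Ccdc113 by 0.42, adjusted p = 0.325. Differences between the members and these lists were not tested.

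**Figure D4:**
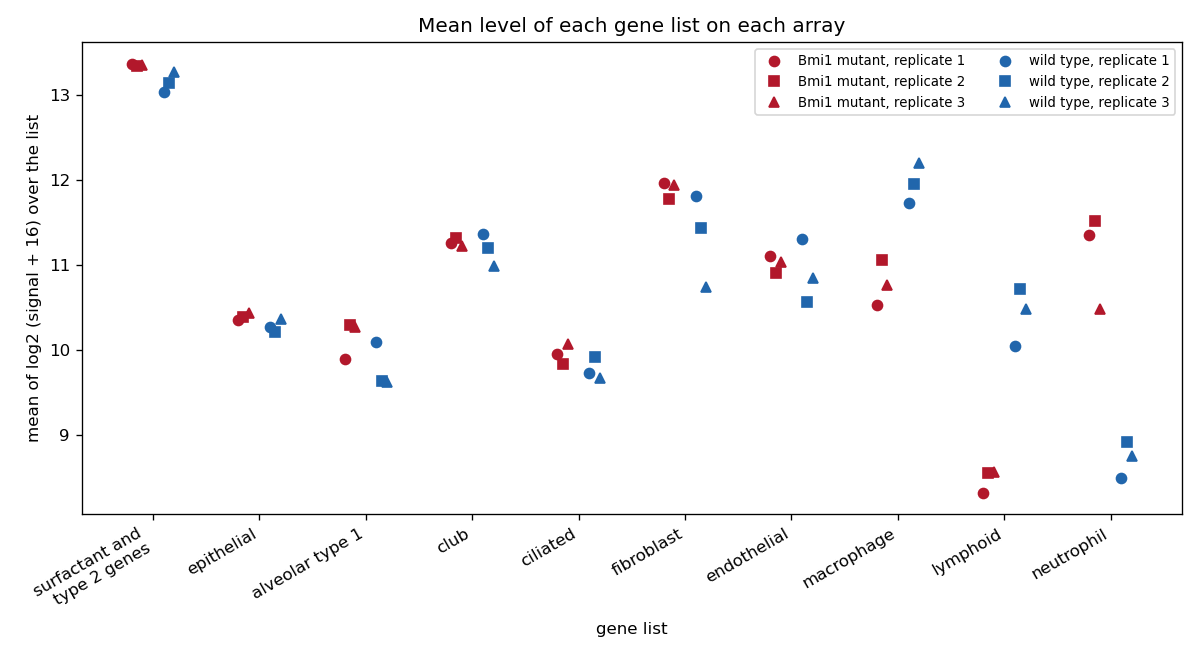
Mean of log2(signal + 16) over the genes of each list on each array, with mutant arrays in red on the left and wild-type arrays in blue on the right; symbols give the replicate number. Levels are to be compared within a list only. The surfactant and type 2 genes lie at 13.34 to 13.37 in mutant arrays, against 13.04 to 13.27 in wild-type arrays, while the means of lymphoid, macrophage and neutrophil markers differ by over 1 between the genotypes.

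Of the genes around the surfactant system, 0 were called in each of 5 lists, and the values given for them are log2 differences. Of 21 regulators of surfactant genes, 16 were above 0 with a median of 0.17. The master regulator Nkx2-1 read 109 ± 25.7 in mutant and 85.3 ± 26.0 in wild-type cells (SD, n = 3 each), and differed by 0.32, adjusted p = 0.640 (limma), or by 0.088 without wild-type replicate 3. Foxa2 differed by 0.17, adjusted p = 0.840, and by -0.0066 without wild-type replicate 1. Cebpa, needed for type 2 cell maturation, differed by 0.088, adjusted p = 0.871, with 0.026 to 0.20 when 1 array was left out. The smallest p-values among the regulators were those of the forkhead gene Foxp2 (0.64, adjusted p = 0.178), of Nfatc3, which encodes a calcineurin-dependent factor (-0.55, adjusted p = 0.195), and of the ETS gene Elf5 (0.69, adjusted p = 0.211).

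Of 21 genes of surfactant lipid synthesis, 17 were above 0 with a median of 0.12. Lpin1, a phosphatidate phosphatase, differed by -1.02, adjusted p = 0.129 (limma), and the acyltransferase gene Agpat2 by 0.64, adjusted p = 0.153. Pcyt1b, an isoform of the rate-limiting enzyme of phosphatidylcholine synthesis, had a mean signal of 29.9 and differed by 1.05, adjusted p = 0.146. This dim value depended on the processing, with 1.80 at an offset of 1, 0.48 at an offset of 64, 0.54 for the mean of its probe sets and 0.024 for its dimmest one. Of 19 genes of surfactant processing, secretion and recycling, 12 were above 0 with a median of 0.18. Ctsh, a protease that with napsin A processes the SP-B precursor, differed by 0.22, adjusted p = 0.628, the sterol exporter gene Abcg1 by -0.71, adjusted p = 0.172, the lysophospholipid transporter gene Mfsd2a by 0.77, adjusted p = 0.210 and the chloride cotransporter gene Slc12a2 by 0.48, adjusted p = 0.223.

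Of 19 other type 2 cell genes, 14 were above 0 with a median of 0.10. Within this list the chitinase-like gene Chil1 read 13073, 11003 and 11132 in the 3 mutant arrays, against 7358, 7664 and 8943 in the 3 wild-type arrays, with the groups apart, and differed by 0.55, adjusted p = 0.204 (limma). The mucin gene Muc1 differed by 0.48, adjusted p = 0.256 and Acoxl, which encodes a protein like acyl-CoA oxidase, by -0.91, adjusted p = 0.283. The list also holds Lyz1 and Lyz2, which macrophages express too. Surfactant is cleared in part by alveolar macrophages, and of 12 genes of that uptake and breakdown 8 were below 0, with a median of -0.29. The lysosomal phospholipase gene Pla2g15 differed by -1.17, adjusted p = 0.0969 and the nuclear receptor gene Pparg by -1.06, adjusted p = 0.0979, whereas the scavenger receptor gene Msr1 differed by 1.35, adjusted p = 0.0516.

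The profile of the 9 members over the arrays was most like that of Oscp1, Lgi4, Hoxc4, Tmem164 and Cluap1 among 11482 other genes with a mean signal of at least 100, with Pearson correlations to the members' mean of 0.996 to 0.976 over 6 arrays. Their log2 differences ranged from 0.19 (Cluap1) to 1.66 (Hoxc4), with limma adjusted p-values from 0.258 to 0.629, so 0 of the 5 were called. The members' mean was itself higher in every mutant array than in every wild-type array. Differences above 0 therefore follow from how these 5 genes were picked. The Hoxc4 value rests on dim signals of 8.36, 36.9 and 125 in the 3 wild-type arrays. Whether correlations this high arise by chance among so many genes over 6 arrays was not tested.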

How the data were processed

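The authors deposited linear probe-set intensities of amplified cDNA (per the labels' protocols). The submitters' processing notes name Affymetrix Expression Console 1.1. How signals were summarized, background-corrected or called as detected is not given in the sources used here. The trimmed mean of every deposited column is 500.00. The 64 control probe sets were left out, and intensities were turned to log2(signal + 16) without further scaling. Of the other 45037 probe sets, 34945 carried 1 gene symbol, 932 several and 9160 none in the platform annotation. Each of 18193 genes was represented by its brightest probe set by mean log2. Genotypes were compared in limma 3.58.1 (lmFit, eBayes; R 4.3.3), without covariates, over all genes and over all probe sets, with Benjamini-Hochberg adjustment. The fit was tested on simulated data with independent noise and added differences larger than those of any member. That run does not cover differences as small as those of the members. The number of arrays limits the precision. Members and gene lists were chosen with earlier results of these data known. Genes named are all members, up to 3 genes of each list with the smallest p (none of the general epithelial, endothelial and erythroid lists), Nkx2-1, Foxa2, Cebpa, Ctsh, Epcam, Cdh1, Scgb1a1, Ager, Ptprc and Bmi1 whatever their values, and the 5 genes most like the members; Pecam1, Lyz1 and Lyz2 are named besides. Alternatives were other offsets, scalings, filters, ways to join probe sets, variance prior, replicate block, an epithelial covariate and leaving out each array, for whole gene lists an alternative added after seeing the data. Promoter stretches were searched for letters on both strands. Figures were drawn with matplotlib 3.10.9.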

Additional observations from a re-analysis of the deposited data

How the results depend on the processing

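Under all 16 alternatives 0 of the 9 members were called at the gene level, and under the 14 that apply to probe sets 0 of the 20 member probe sets. The median difference of the members stayed above 0, between 0.13 with the epithelial covariate and 0.29 with median centring, which moved the median of all genes to 0.10. Leaving out 1 array in turn gave medians of 0.15 to 0.25. The smallest adjusted p of a member was 0.0679 (Sftpb), with a robust, trended prior. Some uncalled differences changed sign. With the epithelial covariate these were Abca3 (-0.11), Etv5 (-0.062), Cebpa (-0.15) and Cdh1 (-0.11), with the dimmest probe set Napsa (-0.11) and Lpcat1 (-0.074), and with quantile normalization Scgb1a1 (-0.032). Leaving out single arrays gave -0.040 to 0.21 for Abca3 (below 0 without mutant replicate 3, -0.0066, or wild-type replicate 1), -0.0031 to 0.085 for Slc34a2 and -0.0066 to 0.38 for Foxa2 (both below 0 without wild-type replicate 1), and -0.047 to 0.11 for Scgb1a1 (below 0 without mutant replicate 2, or else wild-type replicate 3). They gave 0.045 to 0.26 for Sftpc and 0.16 to 0.38 for Etv5. Pdpn and Spock2 passed with an offset of 64 (0.0383 and 0.0428), median centring (0.0430 and 0.0416), the filter on dim genes (0.0248 and 0.0283) and the robust prior (0.00631 and 0.0188), and Pdpn with the mean of probe sets (0.0435), all adjusted p. Cyp2f2 (0.0241) and Scgb3a1 (0.0388) passed with the robust prior. Col3a1 was 1.51 and passed with its dimmest probe set (0.0315), and was 1.01 with the mean of its probe sets (0.0453). Msr1, uncalled as reported, passed with an offset of 64 (adjusted p = 0.0348), median centring (0.0466), the filter on dim genes (0.0237), the mean of probe sets (0.0182) and the robust prior (0.0116), and Pla2g15 (0.0217), Pparg (0.0301), Chil1 (0.0301) and Abcg1 (0.0372) with the robust prior. The count of called genes over the whole array, 168 by limma, was 33 with an offset of 1, 265 with an offset of 64, 308 among genes with a mean signal of at least 100, 98 with the dimmest probe set per gene and 438 with a robust, trended prior. It was 0 with the epithelial covariate (1876 at an unadjusted p under 0.05). Without 1 array it was 2 (wild-type replicate 2), 8 (wild-type replicate 3), 23 (mutant replicate 1), 61 (mutant replicate 2), 65 (wild-type replicate 1) and 76 (mutant replicate 3). Median centring split its calls into 120 higher and 88 lower, against 75 and 93 as reported. With the replicate block it was 0 (2611 at an unadjusted p under 0.05); same-numbered arrays deviated together with correlations of 0.0319 to 0.0735, so the numbers were not taken to pair the samples. Causes of these shifts were not tested. With 3 arrays per genotype, the 95% interval of each of the 9 members includes 0.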
